A study of Danio rerio with 6 samples.

Results

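Solute carriers, ABC transporters, ion pumps and ion channels were followed in zebrafish embryos in which the glucose-sensing transcription factor MondoA had been knocked down. The members were the genes of the count table whose symbol, in the rows of the study's published gene lists read here, begins with slc and a number (the mitochondrial slc25a carriers left out), abca to abcg, kcn, cacn, scn, clcn, atp1a, atp1b, atp2a or atp2b. This gave 101 members of 32054 genes, of which 62 were slc, 9 abc, 7 atp1 or atp2 and 23 channel symbols. The lists differ in how a gene came to be in them. In one list the first 1999 rows were read, sorted by the p-value of the very comparison described here, and 26 members stand in that list alone. In 2 lists on other embryos, the first 1999 and 836 rows in order of gene identifier were read, and 75 members stand there, 6 of them in the p-value list as well. The 26 were therefore chosen by their response, so that their values are given as a description with no p-value, and support nothing. The 75 were admitted by identifier whatever their counts, and their p-values over all genes tested are given.

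Every cell moves sugars, amino acids, metals and ions across its membranes with proteins of these families. Solute carriers couple the movement of a substrate to a gradient or let it pass along its own gradient, ABC transporters and P-type ATPases spend ATP to pump lipids, drugs or ions, and channels open a pore. Many solute carriers and pumps are used by nearly all cells, whereas most voltage-gated channels are known for their use in nerve, muscle and heart. MondoA acts with its partner Mlx on carbohydrate response elements, and the glucose that activates this pathway enters cells through carriers of the slc2a family.

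Messenger RNA was sequenced in 3 samples after injection of mondoa-mo, a morpholino that blocks translation of mondoa, and in 3 samples after injection of mondoa-mis, a mismatch control morpholino. The embryos are called morphants and controls below. Injection was into the yolk at the 1 cell stage, and all embryos were taken at 4 hpf (hours post fertilization), when the control embryos had reached sphere stage and the epiboly delay of the morphants was not yet visible. Whole embryos were pooled for each sample. The study calls the samples of a group biological replicates, and whether they came from separate clutches is not given in the sources used here, so p-values measure the spread between these samples.

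The total count lay between 20685326 and 32100726 per library. Expression was tested with edgeR (quasi-likelihood F-test) on the 15511 genes that passed a filter on low counts, with Benjamini-Hochberg adjustment over all of them, and a gene was called at an adjusted p under 0.05. Of all genes tested 32.3% were called, 16.9% as higher and 15.4% as lower in mondoa-mo. The transcript of mondoa itself (mlxip, ENSDARG00000059474) was at 272 ± 5.55 CPM (counts scaled to the TMM-normalized library size) in the controls and 325 ± 25.8 CPM in the morphants (mean ± SD over the 3 libraries of a group, as in all that follows). The mondoa transcript was called higher in the morphants, with a log2 fold change of 0.25 (standard error 0.0577, adjusted p = 0.0074, edgeR). A morpholino that blocks translation need not lower the transcript, so its level is no check of the knockdown. The mondoa-mo libraries spread more than the mondoa-mis libraries, their biological coefficient of variation being 0.110, beside 0.0189 in mondoa-mis. The SD of CPM was larger in mondoa-mo for 54 of the 65 members tested. For each gene the test fitted a common spread to both groups, so its p-values do not take this difference into account. Genes of cell types present at this stage also differed. Of 8 enveloping layer markers 5 were tested, cldne was called higher and grhl3 lower, and the summed level lay between 157 and 165 CPM in the controls and between 73.4 and 112 CPM in the morphants. The lower sum rested on grhl3. Without it the other markers summed to between 42.1 and 44.5 CPM in the controls and between 44.9 and 79.2 CPM in the morphants. Of these, cldne had 17.8, 17.4 and 17.6 CPM in the controls and 36.1, 33.1 and 48.8 CPM in the morphants. The keratin genes krt4 and krt8 were not called. Both were below every control in mondoa-mo replicates 1 and 2, and above every control in replicate 3. For krt4 the values were 11.37, 11.96 and 11.98 CPM against 5.79, 3.87 and 13.1 CPM. For krt8 they were 12.6, 12.8 and 13.8 CPM against 6.53, 7.55 and 14.6 CPM. Of 8 yolk syncytial layer markers 3 were tested and mxtx1 was called higher, with summed levels of 14.3 to 15.3 CPM and 18.1 to 31.7 CPM. Of 6 genes listed for deep cells, nanog, pou5f3, sox3, sox19b, vent and vox, 3 were called higher and 1 lower. Among them vent and vox, which the study uses as ventral markers, had log2 fold changes of -1.74 and 1.12. Whether these 6 genes mark deep cells alone at this stage was not tested. Of 5 germ plasm markers 4 were called higher. Of 8 markers of differentiated cells 5 were matched, and their summed level stayed under 1 CPM in every library. The part of these markers in the results below was not tested, and in whole embryos fewer cells of a type and less RNA per cell cannot be told apart.

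At 4 hpf 65 of the 101 members had enough counts to be tested. The other 36, all of them admitted by identifier, had at most 21 counts in any library, and 20 of them had at most 3 counts in every library. The families differed in this. All 9 ABC proteins, all 9 metal carriers, all 6 slc35 carriers and all 3 chloride channel genes were tested, but only 2 of 10 potassium channel genes, 3 of 9 calcium channel genes and 3 of 7 sugar and polyol carriers. A low p-value needs counts, so the 26 members in the p-value list alone were tested by that choice. Of those admitted by identifier, all 4 ABC, 5 metal, 4 slc35 and 1 chloride channel genes were tested. Only 1 of 9 potassium, 2 of 8 calcium and 2 of 6 sugar genes were. In the wider family below, 43 of 52 ABC, 19 of 26 metal, 22 of 29 slc35 and 9 of 11 chloride genes were tested. There 33 of 128 potassium, 28 of 49 calcium and 15 of 27 sugar genes were. Levels between genes were compared as CPM per kilobase of the deposited gene length. The highest was atp1a1a.1, a catalytic subunit of the sodium-potassium pump, at 151 CPM per kb over the 6 libraries. It was followed by atp1b3b, a regulatory subunit of that pump, at 143 CPM per kb, and the lowest tested member was the iron exporter slc40a1, at 0.161 CPM per kb. The median over the 65 members was 9.61 CPM per kb, beside 6.43 CPM per kb over all genes tested. It was 6.69 CPM per kb for the 39 admitted by identifier and 14.9 CPM per kb for the 26 chosen by p-value.

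**Figure D1:**
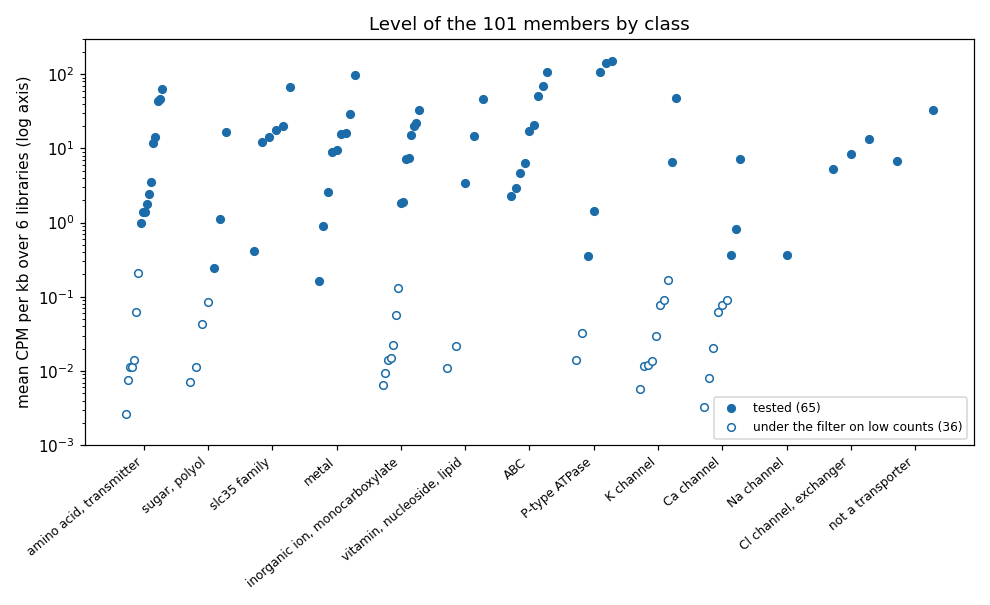
Mean level of each of the 101 members over the 6 libraries, in CPM per kilobase on a log axis, by class. Each filled point is one of the 65 tested members and each open point one of the 36 under the filter on low counts; the pump gene atp1a1a.1 stands highest at 151 CPM per kb, and most potassium and calcium channel genes are open points.

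Among the 39 tested members that were admitted by identifier, 7 were higher and 3 lower in mondoa-mo, 25.6% in all beside the 32.3% of all genes tested. Their median log2 fold change was 0.05, beside 0.00 over all genes. None of the 39 was called with a log2 fold change of 1 or more in size, a mark that 3.92% of all genes reached. The 10 called genes had log2 fold changes from 0.17 to 0.95 in size, and all 10 had groups with no overlap in CPM. Over all 39, the groups did not overlap for 17, beside 47.8% of all genes tested. The number of lower genes was 5 when mondoa-mo replicate 2 was left out, and lay between 2 and 5 as each library was left out in turn. For the 29 genes not called, the log2 fold changes lay between -0.63 and 0.34, with a median standard error of 0.115, and 17 of them were within 0.1 of no change. Standard errors (SE) of log2 fold changes, also those after ± beside a fold change, were derived from the F statistic of the test. The adjusted p-values that follow are from this edgeR test.

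The same symbol patterns were then applied to a gene name table that pairs 28986 of the identifiers with a symbol, without regard to how a gene responded. This wider family held 653 genes, of which 353 were tested. Of these, 46 were higher and 39 lower in mondoa-mo, 13% and 11% beside the 16.9% and 15.4% of all genes. In all 24.1% of the tested family was called, beside 32.3% of all genes tested. The median log2 fold change of the family was -0.02. The family also held 88 solute carriers outside the classes that follow, of which 48 were tested. Of those tested 8 were higher and 2 lower, 16.7% and 4.2% beside 16.9% and 15.4% of all genes. The 26 members chosen by p-value were all called, as the choice of their list fixes, 14 as higher and 12 as lower. The size of their log2 fold changes lay between 0.32 and 1.29. Over all 65 tested members of both kinds, 21 were higher and 15 lower, a number that the choice by p-value raises.

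**Figure D2:**
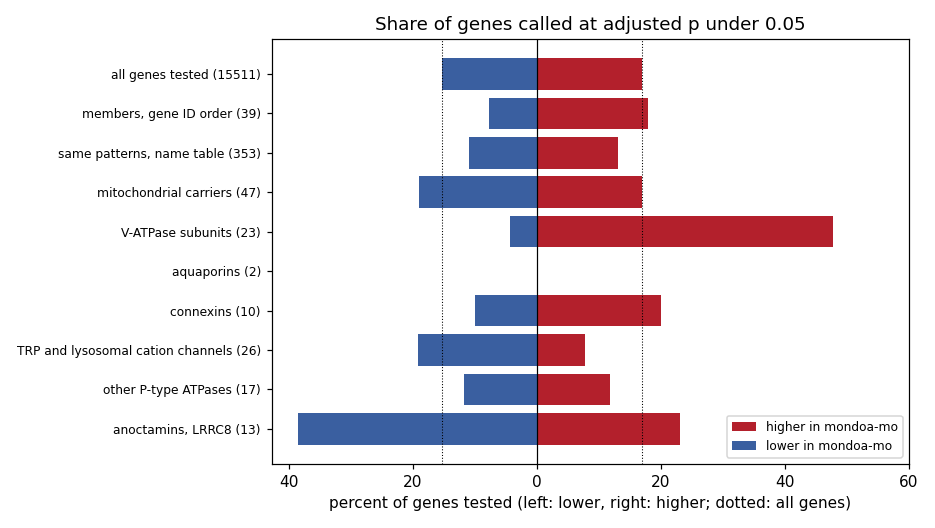
Share of tested genes called higher (to the right) and lower (to the left) in mondoa-mo at an adjusted p under 0.05, in percent, for all genes, the members admitted by identifier, all genes of the same patterns in the name table and 7 related lists; numbers in brackets are genes tested and dotted lines mark all genes. V-ATPase subunits reach 47.8% higher, beside 16.9% of all genes, and the members admitted by identifier 17.9%.

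**Figure D3:**
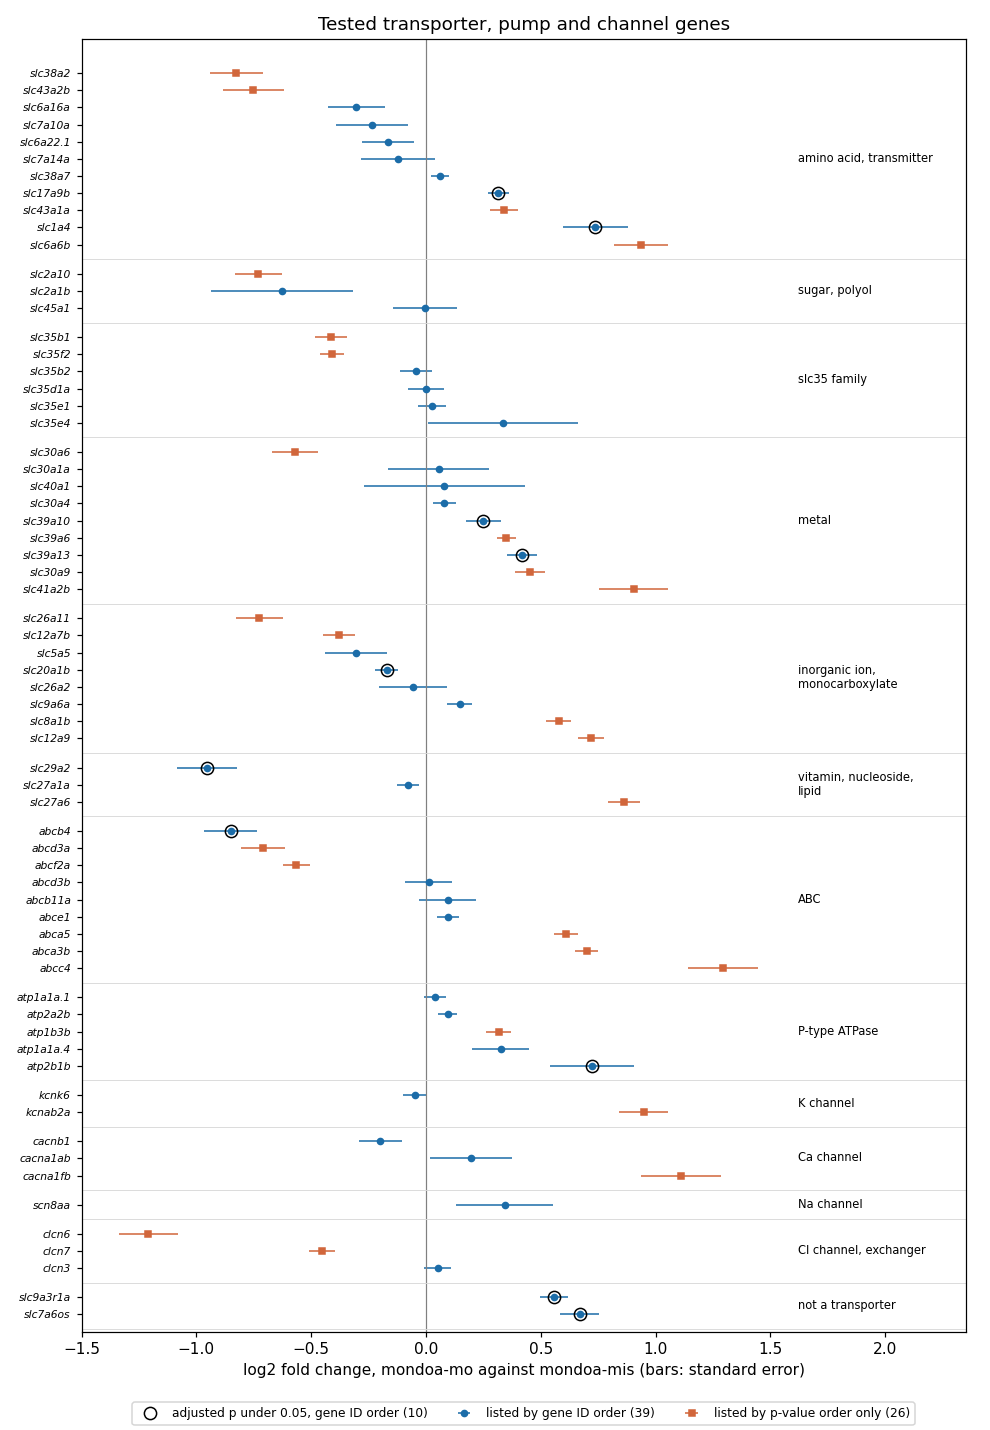
Log2 fold change of mondoa-mo against mondoa-mis for the 65 tested members, ordered by class, with bars for the standard error. Circles are the 39 genes admitted by identifier, of which the 10 ringed ones passed the test, and squares are the 26 genes that stand in the p-value list alone; the squares lie on both sides of 0, from clcn6 at -1.21 to abcc4 at 1.29.

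The nucleoside carrier slc29a2 (ENSDARG00000001767), known in mammals as the equilibrative carrier ENT2 that lets nucleosides pass in both directions, changed most among the genes admitted by identifier. Its level was 17.5, 16.8 and 16.9 CPM in the controls and 7.01, 10.1 and 9.51 CPM in the morphants. All mondoa-mo libraries were below all mondoa-mis libraries, and mondoa-mo replicate 1 was the lowest. The log2 fold change was -0.95 (with a standard error of 0.129 and adjusted p = 0.00039), and it stayed between -1.07 and -0.80 in the alternatives tried. Of the other carriers of vitamins, nucleosides, fatty acids and bile acids, slc27a1a, a fatty acid transport protein, had 137 ± 3.60 CPM in the controls and 129 ± 4.96 CPM in the morphants and was not called (adjusted p = 0.25). Its relative slc27a6 was among the genes chosen by p-value and had 22.8, 23.0 and 21.2 CPM against 42.1, 38.8 and 40.9 CPM, a log2 fold change of 0.86. The thiamine carrier slc19a3a and slc10a4, a relative of the bile acid carriers, had at most 2 counts in any library. Of the 21 genes of this class in the wider family 12 were tested, with 1 higher and 3 lower. These were 8.3% and 25%, beside the 16.9% and 15.4% of all genes.

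The ABC family showed values in both directions. The gene abcb4 (ENSDARG00000010936), known in zebrafish as an exporter of foreign compounds in the embryo, had 11.4, 12.04 and 11.98 CPM in the controls and 7.07, 7.002 and 5.55 CPM in the morphants. Every mondoa-mo library was lower, replicate 3 most so. The log2 fold change was -0.85 (SE 0.116, adjusted p = 0.00039). The other 3 ABC genes admitted by identifier were not called. They were abcd3b, which encodes a peroxisomal half-transporter for fatty acids, with a log2 fold change of 0.01 ± 0.102 (standard error), abcb11a, a relative of the bile salt export pump, with 0.09 ± 0.123, and abce1, with 0.10 ± 0.0475.

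Among the 5 ABC genes chosen by p-value, abcc4, an exporter of cyclic nucleotides and prostaglandins in mammals, had 11.4, 11.5 and 12.2 CPM in the controls and 34.1, 30.2 and 21.3 CPM in the morphants. Its log2 fold change of 1.29 was the highest of all members, and mondoa-mo replicate 3 stood nearest to the controls. The lipid transporter genes abca3b and abca5 had log2 fold changes of 0.70 and 0.61. The gene abcd3a, the paralog of abcd3b, had 60.4, 60.2 and 57.3 CPM in the controls and 34.8, 42.7 and 31.6 CPM in the morphants, with a log2 fold change of -0.71. The libraries of abcd3b overlapped, at 15.1, 15.3 and 14.9 CPM against 13.4, 17.2 and 15.1 CPM. The paralogs thus had different values side by side, and the difference between them was not tested. The wider family held 52 ABC genes, of which 43 were tested, with 7 higher and 8 lower. These were 16.3% and 18.6%, beside the 16.9% and 15.4% of all genes.

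Of the amino acid and neurotransmitter carriers 11 of 18 members were tested. Of the 7 admitted by identifier 2 were higher and 0 lower, 28.6% and 0% beside 16.9% and 15.4% of all genes. The first was slc1a4 (ENSDARG00000000551), a carrier of small neutral amino acids, at 3.64, 4.00 and 3.18 CPM in the controls and 5.70, 6.82 and 5.63 CPM in the morphants. The libraries of the 2 groups did not overlap, and the log2 fold change was 0.74 (SE 0.143, adjusted p = 0.0031). The second was slc17a9b (ENSDARG00000011049), whose mammalian counterpart loads ATP into vesicles. It had 129, 130 and 124 CPM against 162, 157 and 156 CPM, a smaller difference with close replicates, and its log2 fold change was 0.31 (SE 0.0451, adjusted p = 0.00055).

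The most abundant member of the class per kilobase, slc38a7, known in mammals as a lysosomal glutamine carrier, had 292 ± 3.04 CPM in the controls and 305 ± 5.16 CPM in the morphants, a log2 fold change of 0.06 ± 0.0396 that was not called. Its relative slc38a2, a plasma membrane carrier that mammalian cells make more of when amino acids are short, was among the genes chosen by p-value. It had 9.57, 10.1 and 8.94 CPM against 5.95, 4.88 and 5.22 CPM, so that the mondoa-mo libraries were the lower ones. Its log2 fold change was -0.83. The facilitated leucine carriers of the slc43a family stood on both sides, with -0.75 for slc43a2b and 0.34 for slc43a1a. The taurine carrier slc6a6b had 14.3, 13.8 and 13.8 CPM against 31.8, 24.5 and 23.4 CPM, a log2 fold change of 0.94, with mondoa-mo replicate 1 highest.

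The gene slc6a22.1 had 40.9 ± 1.63 CPM in the controls and 36.3 ± 6.79 CPM in the morphants and was not called (adjusted p = 0.30). It passed when mondoa-mo replicate 1, its highest library, was left out (log2 fold change -0.33, adjusted p = 0.010, edgeR). Its tandem copy slc6a22.2 had at most 1 count in any library. Carriers known for synaptic vesicles or nerve cells, slc17a6a, slc18a3a and slc1a6, had at most 2 counts, and the dopamine carrier slc6a3 had between 5 and 21. Among the 90 carriers of this class in the wider family, 50 were tested and 5 were higher and 3 lower, 10% and 6% beside the 16.9% and 15.4% of all genes.

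Of the sugar and polyol carriers 3 of 7 were tested. The glucose carrier genes slc2a1a and slc2a1b, copies of the carrier GLUT1 on which most mammalian cells rely, were barely detected. The gene slc2a1a had 3, 6 and 4 counts in mondoa-mis and 3, 0 and 6 counts in mondoa-mo, too few to be tested. The gene slc2a1b had 13, 12 and 14 counts against 10, 9 and 9 counts. Its CPM did not overlap between the groups, but its log2 fold change of -0.63 had a standard error of 0.309 and was not called (adjusted p = 0.15). A difference was thus not detectable at this depth for either gene.

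The carrier slc2a10 (ENSDARG00000090820), a member of the same family that mammalian cells hold on inner membranes, was among the genes chosen by p-value. It had 45.0, 45.6 and 50.9 CPM in the controls and 27.3, 33.1 and 25.0 CPM in the morphants. The mondoa-mo libraries were the lower ones, with a log2 fold change of -0.73. The proton-coupled sugar carrier slc45a1 had 3.47 and 3.45 CPM on average and a log2 fold change of -0.00 ± 0.138. Of 27 sugar and polyol carriers in the wider family 15 were tested, with 0 higher and 2 lower. These were 0% and 13.3%, beside the 16.9% and 15.4% of all genes.

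All 6 members of the slc35 family were tested. The family is known for carriers that bring nucleotide sugars into the endoplasmic reticulum and Golgi, but holds carriers of other substrates and members of unknown substrate too, so that the symbol alone does not give the substrate. The 4 admitted by identifier were not called by edgeR or DESeq2, and 0 had an unadjusted p under 0.05. The genes slc35b2, slc35d1a and slc35e1 had log2 fold changes of -0.04, -0.00 and 0.03, and slc35e4, at about 1 CPM, had 0.34 ± 0.325. The 2 chosen by p-value were slc35b1, with 52.1 ± 0.912 and 39.1 ± 3.10 CPM, and slc35f2, with 154 ± 3.06 and 116 ± 6.10 CPM, and both had a log2 fold change of -0.41. Across the wider family, 22 of 29 slc35 genes of this class were tested, with 1 higher and 2 lower. These were 4.5% and 9.1%, beside the 16.9% and 15.4% of all genes.

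Metal carriers were measured for all 9 members. Of the 5 admitted by identifier 2 were higher and 0 lower, 40% and 0% beside 16.9% and 15.4% of all genes. With 5 genes such a share says little. Both of the higher ones belong to the slc39 family of zinc importers. The gene slc39a13 (ENSDARG00000000442), known in mammals for releasing zinc from the Golgi and vesicles, had 42.3, 40.8 and 39.8 CPM in the controls and 53.3, 58.7 and 52.6 CPM in the morphants. The groups did not overlap, and the log2 fold change was 0.42 (SE 0.0648, adjusted p = 0.00085). The plasma membrane zinc importer slc39a10 (ENSDARG00000005823) had 89.9, 83.5 and 86.4 CPM against 116, 98.9 and 93.7 CPM, a log2 fold change of 0.25 (SE 0.0759, adjusted p = 0.030). This call was lost with library size alone for normalization, and when any mondoa-mis library or mondoa-mo replicate 1 was left out. The adjusted p-values of edgeR then reached up to 0.12.

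The other zinc importer, slc39a6, which in zebrafish is known for its part in cell movements of the gastrula, was among the genes chosen by p-value and the most abundant metal carrier. It had 231, 228 and 226 CPM against 296, 282 and 294 CPM, a log2 fold change of 0.35. In the same way slc30a9 had 0.45, the magnesium carrier slc41a2b 0.90 and slc30a6, which moves zinc into the Golgi in mammals, -0.57. The zinc exporter slc30a1a, the vesicular carrier slc30a4 and slc40a1 were not called. Their log2 fold changes were 0.06 ± 0.220, 0.08 ± 0.0521 and 0.08 ± 0.351. With 7 to 20 counts per library, slc40a1 could not show a small difference. Of 26 metal carriers in the wider family 19 were tested, and 6 were higher and 2 lower, 31.6% and 10.5% beside the 16.9% and 15.4% of all genes.

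Of the carriers of inorganic ions and monocarboxylates 8 of 15 were tested. Of the 4 admitted by identifier 1 was lower, 25% beside 15.4% of all genes. This was the sodium-phosphate carrier slc20a1b (ENSDARG00000010641), with 113, 110 and 110 CPM in the controls and 94.4, 98.4 and 103 CPM in the morphants. The 2 groups did not overlap, but lay close. The log2 fold change of -0.17 (SE 0.0503, adjusted p = 0.025) was not called when any mondoa-mis library or mondoa-mo replicate 1 was left out, with adjusted p-values up to 0.11. The endosomal sodium-proton exchanger slc9a6a, at 58.9 and 65.1 CPM on average, came near the threshold with 0.15 ± 0.0527 (adjusted p = 0.057).

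Among the genes of this class chosen by p-value, the sodium-calcium exchanger slc8a1b had 55.4, 53.5 and 51.2 CPM against 81.1, 79.0 and 78.9 CPM, a log2 fold change of 0.58. The gene slc12a9, a relative of the cation-chloride carriers, had 113, 112 and 109 CPM against 185, 169 and 194 CPM, a log2 fold change of 0.72. The potassium-chloride carrier slc12a7b and the sulfate carrier slc26a11 were on the other side, with -0.38 and -0.73. For slc26a11 the libraries were at 45.7, 44.4 and 44.5 CPM against 25.7, 32.3 and 23.5 CPM. The tandem copies slc26a3.1 and slc26a3.2 had at most 4 counts in any library. The wider family held 90 genes of this class, 52 of them tested, with 6 higher and 8 lower. These were 11.5% and 15.4%, beside the 16.9% and 15.4% of all genes.

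Of the P-type ATPases 5 of 7 were tested. The catalytic sodium-potassium pump gene atp1a1a.1 had 814, 803 and 797 CPM in the controls and 855, 774 and 852 CPM in the morphants. The libraries overlapped, and its log2 fold change of 0.04 ± 0.0471 was not called (adjusted p = 0.56). Of its tandem copies, atp1a1a.4 had 5.65 ± 0.581 and 7.08 ± 0.538 CPM with a log2 fold change of 0.33 ± 0.124 that was not called (adjusted p = 0.068), and atp1a1a.2 had at most 2 counts. Only uniquely mapped read pairs were counted, so the levels of such near copies are uncertain. The regulatory subunit gene atp1b3b, chosen by p-value, had 252, 251 and 252 CPM against 331, 320 and 289 CPM, a log2 fold change of 0.32.

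For the calcium pumps, atp2a2b, which fills the endoplasmic reticulum, had 621 and 663 CPM on average and a log2 fold change of 0.09 ± 0.0428 that was not called. The plasma membrane pump atp2b1b (ENSDARG00000007788) was much lower in level, at 1.43, 1.57 and 1.33 CPM in the controls and 2.62, 2.40 and 2.13 CPM in the morphants. Its libraries did not overlap and its log2 fold change was 0.72 (SE 0.184, adjusted p = 0.013). This call was lost without mondoa-mis replicate 1 or 3 and with DESeq2's Wald test, where adjusted p-values reached 0.062. Of 27 such pumps in the wider family 16 were tested, with 4 higher and 1 lower. These were 25% and 6.2%, beside the 16.9% and 15.4% of all genes.

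Of 23 channel members 9 were tested, and these ranged from 0.362 CPM per kb for cacna1ab to 48.1 CPM per kb for kcnk6. By edgeR, none of the 5 admitted by identifier was called at an adjusted p under 0.05, with 0 at an unadjusted p under 0.05 and 0 called by DESeq2. The potassium channel kcnk6, a pore that stays open at rest in mammals, was the only one of these well above 100 CPM, at 201 ± 3.75 CPM in the controls and 195 ± 11.3 CPM in the morphants (log2 fold change -0.05 ± 0.0514, adjusted p = 0.51). The calcium channel beta subunit cacnb1 had 21.8 ± 0.832 and 19.1 ± 2.05 CPM and was not called (adjusted p = 0.13), but passed without mondoa-mo replicate 2 (adjusted p = 0.045, edgeR). The nerve and muscle type channels cacna1ab and scn8aa had average levels between 2.22 and 3.40 CPM and log2 fold changes of 0.20 ± 0.177 and 0.34 ± 0.212.

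The 4 channel genes chosen by p-value held the lowest log2 fold change of all members. The gene clcn6, a chloride-proton exchanger of late endosomes, had 26.3, 27.02 and 27.7 CPM in the controls and 14.0, 11.4 and 9.35 CPM in the morphants, a log2 fold change of -1.21. Its relative clcn7, the exchanger of lysosomes, had 93.8, 97.8 and 94.8 CPM against 68.7, 74.0 and 66.4 CPM, a log2 fold change of -0.45. The third member of this family, clcn3, had been admitted by identifier and was not called, with 65.8 and 68.1 CPM on average and 0.05 ± 0.0605. The potassium channel beta subunit kcnab2a had 7.60, 7.15 and 8.27 CPM against 16.1, 14.5 and 13.6 CPM, a log2 fold change of 0.95. The calcium channel gene cacna1fb had 3.39, 4.47 and 3.99 CPM against 10.3, 8.34 and 6.80 CPM, a log2 fold change of 1.11. Its paralog cacna1fa had at most 5 counts. The potassium channel pair kcnh6a and kcnh6b had at most 11 and 2 counts. Across the wider family, 33 of 128 potassium, 28 of 49 calcium, 5 of 14 sodium and 9 of 11 chloride channel genes were tested, with 3, 2, 0 and 2 higher and 3, 3, 0 and 2 lower. In the same order 9.1%, 7.1%, 0% and 22.2% were higher, beside 16.9% of all genes. The lower ones were 9.1%, 10.7%, 0% and 22.2%, beside 15.4%.

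**Figure D4:**
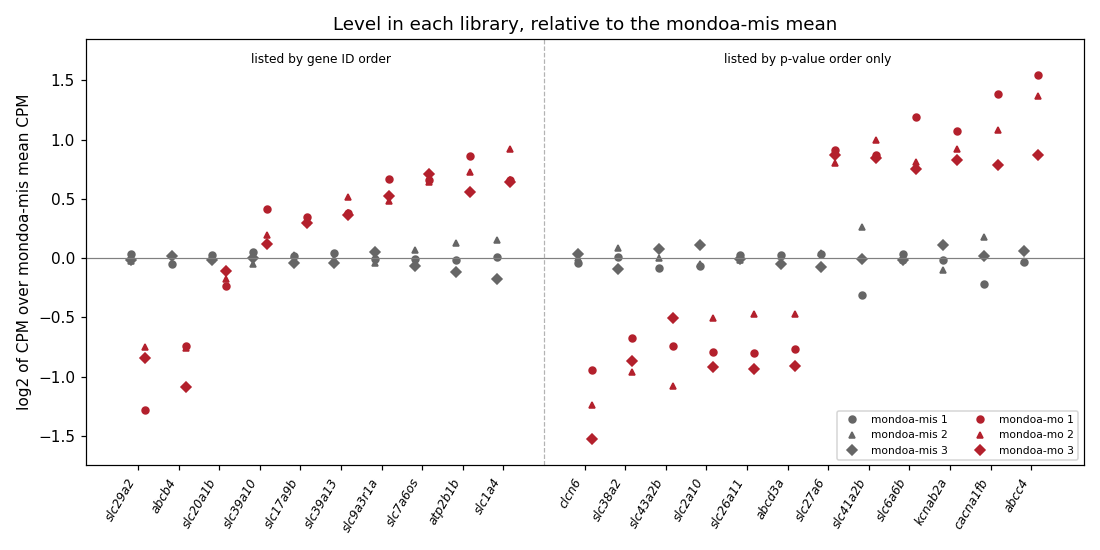
Level of 22 named members in each of the 6 libraries, as log2 of CPM over the mondoa-mis mean; grey symbols are mondoa-mis and red symbols mondoa-mo, with one shape per replicate number. The 10 genes on the left were admitted by identifier and called, and the 12 on the right were chosen by p-value; mondoa-mo replicate 1 stands highest for abcc4 at 34.1 CPM, and mondoa-mo replicate 3 lowest for clcn6 at 9.35 CPM.

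Some symbols match the patterns although their proteins carry nothing across a membrane. The gene slc9a3r1a (ENSDARG00000000068) encodes a scaffold that binds sodium-proton exchangers and other membrane proteins, and had 62.9, 61.5 and 65.8 CPM in the controls and 100, 88.5 and 90.9 CPM in the morphants. The gene slc7a6os (ENSDARG00000010596) is named only for lying opposite to the carrier slc7a6, and had 11.04, 11.7 and 10.6 CPM against 17.5, 17.3 and 18.2 CPM. The libraries did not overlap for either gene. The log2 fold changes were 0.56 (SE 0.0616, adjusted p = 0.00011) and 0.67 (SE 0.0848, adjusted p = 0.00026), and both had been admitted by identifier. The ABC proteins abce1 and abcf2a act at the ribosome rather than in a membrane, as far as their relatives in yeast show. For abce1 the libraries overlapped, at 223 ± 6.32 and 238 ± 10.1 CPM. For abcf2a, chosen by p-value, they were at 317, 314 and 304 CPM against 218, 224 and 190 CPM, a log2 fold change of -0.56. Without these 4 symbols the genes admitted by identifier counted 5 higher and 3 lower of 36 tested.

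Ranked by DESeq2's p-value on the deposited counts, the last members inside were slc43a1a, slc41a2b and slc30a6, at ranks 1464, 1534 and 1607, with log2 fold changes of 0.34, 0.90 and -0.57. The nearest genes of the same patterns outside were abcd2, SLC15A4 and SLC5A6, at ranks 2086, 2198 and 2216, with log2 fold changes of 1.104, -0.24 and 0.31. The p-value list was cut by rank in this same comparison, so that the ranks inside and outside it were apart was fixed by the cut. The sizes of the log2 fold changes inside and outside overlapped.

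Gene length, level and neighbours were set beside the counts of calls. Of the 39 genes admitted by identifier, 21 belonged to the longest of 3 length classes, in which 36% of all genes were called, and 6 of the 21 were. In the middle class 34% of all genes and 4 of 17 were called. By level, 5 of 16 were called in the highest class, where 43.6% of all genes were, 3 of 12 in the middle one, where 34.9% were, and 2 of 11 in the lowest, where 18.5% were. The median log2 fold change of all genes moved little with length, from -0.01 in the shortest to 0.02 in the longest class. In the RefSeq annotation of GRCz12tu, the span of 10 of the 65 tested members overlapped that of another protein-coding gene, among them slc29a2 with cfb, slc39a10 with dnah7, slc26a11 with sgsh, slc41a2b with chst11 and nfyba, and kcnab2a with flnba. Whether strand was used in counting is not given in the sources used here, so reads from such partners may not be told apart.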

How the data were processed

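For the 6 morphant and control libraries, the authors used TRIzol for RNA, the TruSeq mRNA kit for libraries and a paired-end run over 3 lanes, reading 50 nucleotides per end. Pairs were placed on GRCz11 by STAR 2.3.8, and what the authors deposited is a table of raw counts, pairs with a unique position per gene of Ensembl 96, besides another column of gene lengths of unstated origin. Tests used edgeR 4.0.16 under R 4.3.3 (filterByExpr, TMM, quasi-likelihood test, no covariate, threshold 0.05). DESeq2 1.42.0, 2 other normalizations, 2 other filters, a replicate block and leaving out each library were alternatives. A level of 3 counts was taken as the floor, which covers counting error only.

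The members and gene lists were chosen with earlier results of these data known. Named genes were the called ones admitted by identifier, the 6 lowest and 6 highest of those chosen by p-value, the most abundant of each class, the glucose carriers, the paralog pairs, the 4 symbols that are no transporters and those nearest to the limit of the p-value list; the rest were named after their values were seen. One symbol written in capitals was not counted as a member. Symbols, but no values, came from the study's published lists.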

Additional observations from a re-analysis of the deposited data

How the results depend on the processing

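The counts of members higher and lower, 21 and 15, and of those admitted by identifier, 7 and 3, stayed within 1.5 times with either other normalization or filter, with DESeq2 and without the 4 symbols that are no transporters. As each library was left out in turn, members higher lay between 19 and 22 and lower between 14 and 17, and those admitted by identifier between 5 and 8 and between 2 and 5. Of the 21 and 15, however, 14 and 12 had been chosen by their p-value in these same libraries. How little the calls of those chosen genes moved was largely fixed by that choice and supports nothing. Symbols from the gene name table, an alternative chosen after seeing the data, gave 46 higher and 39 lower because more genes were counted. The planned use of the RefSeq table was not run, since it holds no Ensembl identifiers here. With the replicate number as a block the counts were 21 and 15, and 7 and 3. Same-numbered libraries deviated together only weakly, with correlations of 0.038, 0.026 and 0.047, though every library correlated best with its own number. Of 479 values of 40 named members, 461 kept their direction and side of the threshold, 12 lost the call and 2 gained it. The sign turned 4 times, each for a gene that was not called: abcd3b had -0.030 with library size alone and lay between -0.092 (without mondoa-mo replicate 2) and 0.099 (without mondoa-mo replicate 1) as libraries were left out, atp1a1a.1 had -0.0033 with library size alone, and kcnk6 lay between -0.077 (without mondoa-mo replicate 2) and 0.0011 (without mondoa-mo replicate 1). The cause was not tested. Library size alone moved the median of all genes by -0.04. Depth limits what can be said of the 36 members under the filter.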

Other observations

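Transport genes outside the symbol patterns were read from the same edgeR fit, by lists of symbols in the gene name table. The V-ATPase, the proton pump that acidifies lysosomes and endosomes, had more higher than lower genes: of 27 genes for its subunits and accessory proteins 23 were tested, and 11 were higher and 1 lower in mondoa-mo, 47.8% and 4.3% beside 16.9% and 15.4% of all genes. The median log2 fold change was 0.22. The highest was ATP6V0B, a subunit of the membrane part, at 17.9 and 31.0 CPM on average with a log2 fold change of 0.79 (adjusted p = 0.00038, edgeR's quasi-likelihood test). The gene for the accessory protein ATP6AP2 had 15.9 and 25.0 CPM and 0.65, and the ATP6V1B2 gene ENSDARG00000013443, for a subunit of the ATP-splitting part, 82.6 and 113 CPM and 0.46. The lower gene was atp6v1e1b, at -0.35 (adjusted p = 0.017, the same test). The count of higher genes was 7 without mondoa-mis replicate 3, and 9 with library size alone. No test of the list as a whole was run.

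Of the mitochondrial carriers 47 of 62 were tested, and 8 were higher and 9 lower, 17% and 19.1%. Anoctamins and LRRC8 anion channel genes had 3 higher and 5 lower of 13 tested, 23.1% and 38.5% beside 16.9% and 15.4% of all genes. Among TRP and lysosomal cation channels 2 were higher and 5 lower of 26, 7.7% and 19.2%. The 26 include TRPC4AP, which matches by symbol but is named as a protein associated with a channel, and it was not called. Connexins had 2 higher and 1 lower of 10 tested, 20% and 10%, and other P-type ATPases 2 and 2 of 17, 11.8% each. Of the 2 aquaporins tested 0 were called by edgeR or DESeq2, and 1 had an unadjusted p under 0.05.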
